A study of Mus musculus with 2 samples.

Results

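The 9 genes described here encode transcription factors that set the identity of microglia and macrophages: Sall1, Mef2a, Mef2c, Maf, Irf8, Spi1, Runx1, Cebpb and Bhlhe41. They were chosen by gene symbol, and they are 9 of the 31053 genes listed in the count matrices. Both libraries of the study came from the ischemic brain, after stroke, of Foxp3Egfp mice, a strain that carries an EGFP reporter at the Foxp3 locus. The age of the mice was 6 to 8 weeks. The brains were flushed with PBS, cells were sorted as CD45+CD11b+CD3-F4/80+, and their RNA was counted with the 10x Genomics Chromium 3' v3 kit, which tags the 3' end of each transcript with a molecular identifier (UMI). The labels give 1 group with replicates 1 and 2, and no uninjured or other control group, so the comparisons below are between cell classes within these 2 libraries. The labels state that barcoded cDNA of stroke mice was pooled, and they do not say that the replicates came from separate animals. The p-values therefore measure only how differences between classes vary from one of these libraries to the other, which may be technical.

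Sall1 is a zinc finger repressor restricted to microglia among brain phagocytes, and it is known to hold back inflammatory and macrophage genes. Mef2a and Mef2c, MADS-box factors, act on microglial enhancers, and Maf (c-Maf) is a bZIP factor of tissue macrophages. Spi1 encodes PU.1, the ETS factor that opens myeloid enhancers, Irf8 and Runx1 work beside it, Cebpb drives inflammatory and monocyte genes, and Bhlhe41 is a basic helix-loop-helix repressor of tissue macrophages.

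Replicate 1 held 15050 cells and replicate 2 held 7910 cells after the filter (at least 1000 UMIs, at least 500 genes, at most 10% mitochondrial UMIs), with medians of 5356 and 5891.5 UMIs per cell. The 9 factors took 236605 UMIs in the cells of replicate 1 and 216912 in those of replicate 2. Classes were drawn by clustering without the 9 factors, their families and their upstream signals, and were named from surface and secreted marker genes only. Genes correlated with the 9 factors may still be among those used for clustering, and the p-values between classes take no account of that. The labels call the cells macrophages, yet microglia-like cells were the largest class, with 5544 cells in replicate 1 (40.7%) and 4713 in replicate 2 (63.6%). Macrophage-like cells numbered 4469 (32.8%) and 574 (7.75%), monocyte-like cells 327 and 384, neutrophil-like cells 715 and 579, dendritic cell-like cells 276 and 229, and T or NK cell-like cells 137 and 96, although the sort was CD3-negative. Another 1203 (8.83%) and 512 (6.91%) cells, among them clusters 9, 10 and 17, were left unnamed and out of the classes. The libraries differed in which macrophage-like clusters they held. Cluster 1, led by Ms4a7, Wfdc17, Lyz2 and Apoe, held 2345 cells in replicate 1 and 153 in replicate 2, cluster 8, led by Fabp4 and Gpnmb, held 945 and 21, and cluster 2a, led by Arg1, Pf4 and Hmox1 and tied between macrophage and border-associated markers, held 1179 and 400. The libraries shared 31 cell barcodes.

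Levels are given as CPM, the UMIs of a gene scaled to the same total of UMIs in every class, and a level of 1 gene is not set against that of another. Fold changes are log2 values from edgeR's quasi-likelihood test on the UMIs summed per library and class, with library as a block and Benjamini-Hochberg adjustment over all genes tested, and a gene was called at an adjusted p under 0.05. RNA outside cells enters every droplet. Barcodes under 100 UMIs held 4.91% of the UMIs of replicate 1 and 4.40% of replicate 2, and in them Sall1 had a level of 63.3 and 86.8 CPM, Mef2c at 242.8 and 316.7 CPM, and Cebpb at 770.1 and 1220 CPM.

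Macrophage-like cells had less transcript of most of the 9 factors than microglia-like cells. Sall1, Mef2c, Mef2a, Bhlhe41, Maf, Runx1 and Irf8 were lower, between 1.63-fold and 27.2-fold, and Spi1 and Cebpb were not called. The count of 7 of 9 stands beside 44.1% of all 10825 genes called in this comparison, and no factor was higher. The median log2 fold change of the 9 factors was -1.22, against -0.04 over all genes tested.

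The start regions of 4 factors are shown because their levels separated the classes most (Sall1 and Mef2c), moved together with another factor over the clusters (Mef2a) or ran apart from the rest (Cebpb). Each is the 250 bases before the annotated start in RefSeq (GRCm38.p6), 5' to 3' on the gene's strand. Capitals mark a PU box, the letters GAGGAA that PU.1 is known to bind.
Sall1, chr8:89044163-89044412, minus strand: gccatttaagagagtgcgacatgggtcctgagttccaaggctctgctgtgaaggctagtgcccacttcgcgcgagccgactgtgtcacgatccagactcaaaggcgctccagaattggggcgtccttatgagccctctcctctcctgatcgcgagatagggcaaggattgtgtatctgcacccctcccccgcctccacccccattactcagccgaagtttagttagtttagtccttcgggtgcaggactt
Mef2a, chr7:67372859-67373108, minus strand: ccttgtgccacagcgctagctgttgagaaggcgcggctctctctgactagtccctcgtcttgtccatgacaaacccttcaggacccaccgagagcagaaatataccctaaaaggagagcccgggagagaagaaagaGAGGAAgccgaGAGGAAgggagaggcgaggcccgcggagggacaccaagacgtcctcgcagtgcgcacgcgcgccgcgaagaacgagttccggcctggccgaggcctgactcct
Mef2c, chr13:83503784-83504033, plus strand: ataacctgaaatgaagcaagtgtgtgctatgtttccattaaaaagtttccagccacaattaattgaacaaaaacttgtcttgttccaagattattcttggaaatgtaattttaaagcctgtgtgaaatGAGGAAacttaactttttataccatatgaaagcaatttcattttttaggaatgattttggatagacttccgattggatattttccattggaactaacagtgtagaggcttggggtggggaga
Cebpb, chr2:167688665-167688914, plus strand: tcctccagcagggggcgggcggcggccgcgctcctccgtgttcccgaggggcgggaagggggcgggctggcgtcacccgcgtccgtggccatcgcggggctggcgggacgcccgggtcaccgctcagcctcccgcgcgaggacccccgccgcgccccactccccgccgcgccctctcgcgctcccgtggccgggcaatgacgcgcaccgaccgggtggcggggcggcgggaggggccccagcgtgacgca
The Mef2a window held 2 PU boxes that do not overlap, at 114 to 109 and 103 to 98 bases before the start, and the Mef2c window held 1, at 122 to 117 bases before it. A PU box on either strand was present in 23.4% of all 32536 windows of this kind. The Sall1 and Cebpb windows held none, nor any of the other 6 motifs searched on both strands: MEF2-type (CTA and TAG with 4 bases of any kind between them, in 3.22% of windows), C/EBP-type TTGCNNCAA (1.75%), RUNX-type TGTGGT (14%), IRF-type (GAAA and again GAAA after 2 bases of any kind, 2.98%), MAF-type TGCTGAC (3.79%) and the E-box CACGTG (6.04%). G and C made up 81.6% of the Cebpb window, 61.6% of Mef2a, 56.4% of Sall1 and 33.6% of Mef2c, against a median of 52.4% over all windows. In all, 7 of the 9 factors matched the RefSeq table, with 13 start windows. Maf and Spi1 did not match. An E-box lay 153 to 148 bases before the Bhlhe41 start and 71 to 66 bases before the first Runx1 start, and a PU box lay before the second starts of Mef2c and Runx1. These letter matches are a description of the windows only.

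Sall1 (ENSMUSG00000031665, chr8:89027235-89044162 in GRCm38, minus strand) showed the widest gap. It had a level of 2.90 and 7.37 CPM in macrophage-like cells of replicates 1 and 2, from 90 and 38 UMIs, against 149.5 and 145 CPM in microglia-like cells, from 3465 and 4407 UMIs. Both macrophage-like values lay below both microglia-like values, and also below the free RNA of their own library. The log2 fold change was -4.76 ± 0.38 (SE, adjusted p = 2.34e-07), the largest in size among the 9 factors.

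Mef2c (ENSMUSG00000005583, chr13:83504034-83667080, plus strand) had a level of 79.8 and 106.7 CPM in macrophage-like cells, against 782.6 and 808.6 CPM in microglia-like cells, a log2 fold change of -2.76 ± 0.33 (SE, adjusted p = 8.11e-06). Its relative Mef2a (ENSMUSG00000030557, chr7:67231163-67372858, minus strand) had 99.6 and 158.1 CPM in macrophage-like cells, against 411.1 and 448.5 CPM in microglia-like cells, and its log2 fold change was -1.41 ± 0.24 (SE, adjusted p = 0.000227). The groups did not overlap for either MEF2 factor. The third MEF2 gene with enough counts, Mef2d, was not called, at a log2 fold change of -0.23 ± 0.17 (SE).

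Maf (ENSMUSG00000055435, chr8:115682942-115707794, minus strand) was measured at 117.3 and 164.5 CPM in macrophage-like cells, against 399.5 and 423.9 CPM in microglia-like cells, with a log2 fold change of -1.22 ± 0.23 (SE, adjusted p = 0.000423). Bhlhe41 (ENSMUSG00000030256, chr6:145858243-145865558, minus strand) was at 100.2 and 66.2 CPM in macrophage-like cells, against 266.5 and 262.2 CPM in microglia-like cells, and had a log2 fold change of -1.38 ± 0.30 (SE, adjusted p = 0.00138). For both genes every macrophage-like value was below every microglia-like value. Runx1 (ENSMUSG00000022952, chr16:92601466-92826149, minus strand) had 63.6 and 78.6 CPM in macrophage-like cells, against 164.8 and 176.1 CPM in microglia-like cells, a log2 fold change of -0.93 ± 0.21 (SE, adjusted p = 0.00218). Irf8 (ENSMUSG00000041515, chr8:120736358-120756694, plus strand) had 169.3 and 179.7 CPM in macrophage-like cells, against 339.9 and 381.4 CPM in microglia-like cells, a log2 fold change of -0.71 ± 0.22 (SE, adjusted p = 0.017). Irf8 was the factor nearest to the threshold among the 7, and its call was lost with doublets kept, with the stricter cell filter, at the lower clustering resolution and without cluster 2, at log2 fold changes between -0.68 and -0.42.

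Spi1 (ENSMUSG00000002111, chr2:91082390-91115756, plus strand) had a level of 255.2 and 386.1 CPM in macrophage-like cells and 333.7 and 420.6 CPM in microglia-like cells, values that overlap. Its log2 fold change was 0.09 ± 0.25 (SE, adjusted p = 0.822), and it was -0.25 with no normalization factor, so no direction is given. Cebpb (ENSMUSG00000056501, chr2:167688915-167690418, plus strand) had 650.5 and 1942 CPM in macrophage-like cells, against 915 and 912.2 CPM in microglia-like cells. Replicate 1 lay below and replicate 2 above the microglia-like level, at log2 ratios of -0.49 and 1.09. The fitted log2 fold change was 0.71 ± 0.32 (SE, adjusted p = 0.0815), and without cluster 2, which held most macrophage-like cells of replicate 2, it was -0.22.

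**Figure D1:**
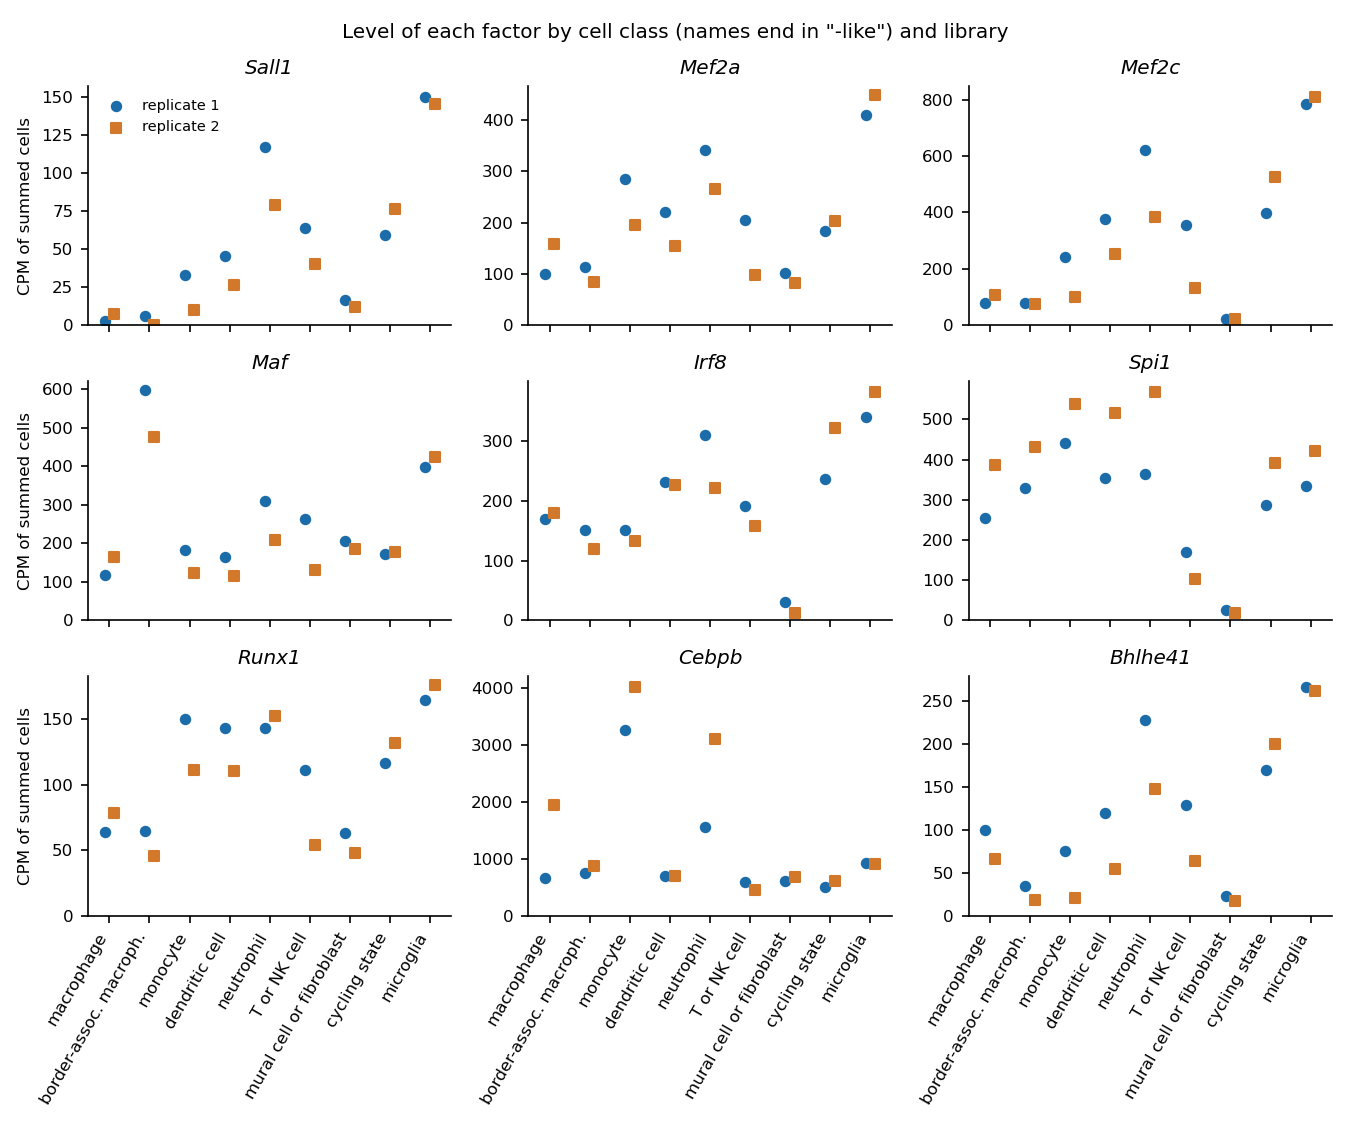
Level of each factor in CPM (vertical axes, linear from 0) in 9 cell classes, with a circle for replicate 1 and a square for replicate 2. Sall1 is at 2.90 and 7.37 CPM in macrophage-like cells and at 149.5 and 145 CPM in microglia-like cells, while Cebpb is highest in monocyte-like cells at 3260 and 4019 CPM.

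Single cells gave the same order at matched depth. After every cell was thinned to 1000 UMIs, Sall1 was seen in 0.291% and 0.871% of macrophage-like cells, against 15.3% and 15.3% of microglia-like cells. Unthinned, the shares were 1.81% and 4.88% of macrophage-like cells (median 6511 and 8674 UMIs) and 41.5% and 55.5% of microglia-like cells (median 3313.5 and 5080 UMIs). Mural cell or fibroblast-like cells, which should lack the microglial factor, showed Sall1 in 1.31% and 1.06% of thinned cells (median 7326 and 18188 UMIs before thinning). These are 2 and 1 cells of 153 and 94, in a class whose microglia markers summed to 38.0% and 29.8% of their microglia-like level, so the background is known only roughly. Sall1 and Mef2c were seen together in 9.11% and 9.53% of microglia-like cells, and in 0.0448% and 0% of macrophage-like cells. The mean number of the 9 factors seen per thinned cell was 1.32 and 1.76 in macrophage-like cells and 2.89 and 3.03 in microglia-like cells.

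Monocyte-like cells carried the most Cebpb of the named classes and, against microglia-like cells, more Spi1 as well. Unnamed cluster 17, led by Ear2 and Ace, with 89 and 80 cells, was not tested. Its Cebpb, at 3139 and 4044 CPM (lower and higher library), overlapped the monocyte-like values, and its Spi1, at 588.4 and 761.9 CPM, lay above them. Cebpb had a level of 3260 and 4019 CPM in monocyte-like cells, against 915 and 912.2 CPM in microglia-like cells, a log2 fold change of 2.30 ± 0.33 (SE, adjusted p = 6.54e-05). It was seen in 92.7% and 93.2% of thinned monocyte-like cells, and both libraries lay above both microglia-like values. Spi1 had 440 and 537 CPM in monocyte-like cells, against 333.7 and 420.6 CPM in microglia-like cells, and its log2 fold change of 0.71 ± 0.25 (SE, adjusted p = 0.0393) was not called under 6 of the alternatives, where it was between 0.37 and 0.72. Sall1 was lower, at 33.2 and 10.2 CPM in monocyte-like cells, with a log2 fold change of -2.66 ± 0.38 (SE, adjusted p = 7.55e-05). Bhlhe41, Mef2c, Maf and Irf8 were lower as well, at log2 fold changes of -2.40, -2.02, -1.13 and -1.01. Mef2a had a log2 fold change of -0.54 ± 0.24 (SE, adjusted p = 0.0943) and Runx1 of -0.07 ± 0.22 (SE, adjusted p = 0.839), and neither was called. In this comparison 7 of 9 factors were called, beside 36.8% of all genes.

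**Figure D2:**
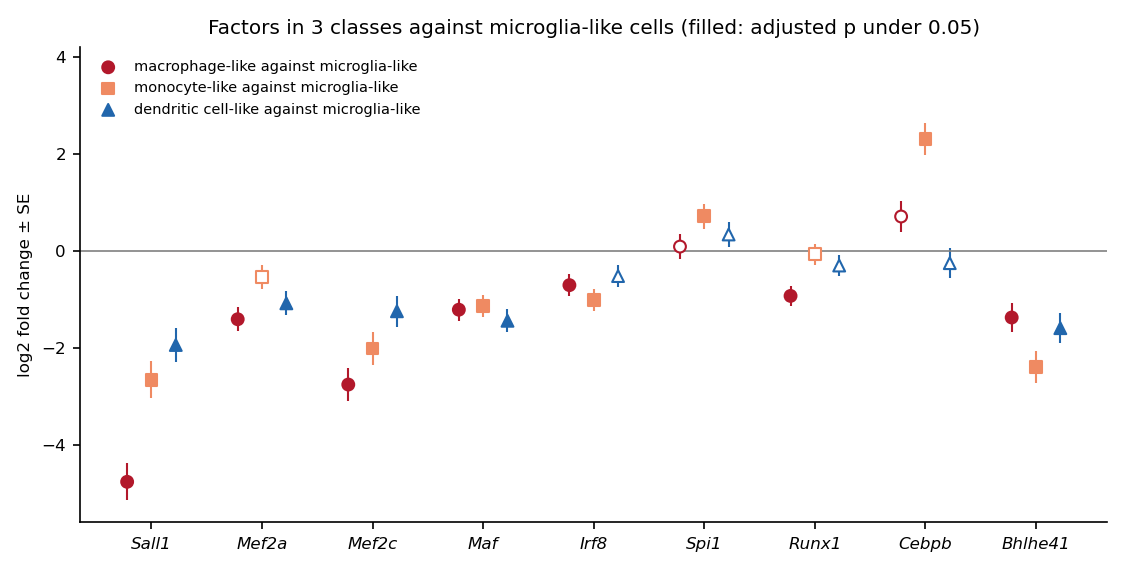
Log2 fold change (vertical axis, linear) of each factor in macrophage-like, monocyte-like and dendritic cell-like cells against microglia-like cells, with bars for the standard error of the fit and filled symbols for an adjusted p under 0.05. All 3 comparisons use the same microglia-like sums, and Cebpb in monocyte-like cells stands highest at 2.30 while Sall1 in macrophage-like cells stands lowest at -4.76.

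Set directly against monocyte-like cells, macrophage-like cells had less Cebpb, Sall1, Mef2a and Runx1 and more Bhlhe41. Here 5 of 9 factors were called, beside 19.2% of all genes. The calls of Cebpb and Runx1 held under every alternative run. With doublets kept, Sall1 was not called, at a log2 fold change of -0.10 (adjusted p = 0.901), nor was Mef2a, at -0.52. Under the stricter cell filter Mef2a and Bhlhe41 were not called, at -0.86 and 0.75, and Bhlhe41 was also lost under 5 other alternatives. Cebpb had a level of 650.5 and 1942 CPM in macrophage-like cells, against 3260 and 4019 CPM in monocyte-like cells, a log2 fold change of -1.59 ± 0.32 (SE, adjusted p = 0.00296). Mef2a, at -0.87 ± 0.25 (SE, adjusted p = 0.0221), and Runx1, at -0.86 ± 0.22 (SE, adjusted p = 0.0139), had the same direction in both libraries. The Bhlhe41 difference of 1.02 ± 0.33 (SE, adjusted p = 0.0409) rested on 100.2 and 66.2 CPM in macrophage-like cells, against 75.5 and 20.1 CPM in monocyte-like cells. The 2 groups overlap for Bhlhe41, since replicate 1 is higher in both. Sall1 had a log2 fold change of -2.11 ± 0.46 (SE, adjusted p = 0.00515), with log2 ratios of -3.52 in replicate 1 and -0.47 in replicate 2, and the summed microglia markers of monocyte-like cells were also higher in replicate 1 (25.7% of their microglia-like level, against 7.25% in replicate 2).

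Dendritic cell-like cells, a cluster led by MHC class II genes and Cd209a, had less of part of the microglial set, but for 2 factors not as little as macrophage-like cells. Only 4 of 10 dendritic cell markers were detected in the cluster: Cd209a, Clec10a, Ccr7 and Klrd1. Its macrophage markers summed to 10196 and 9481 CPM, against 1923 and 1153 CPM in microglia-like cells, so its name is uncertain. Against microglia-like cells, Sall1, Bhlhe41, Maf, Mef2c and Mef2a were lower, at log2 fold changes of -1.94, -1.60, -1.44, -1.25 and -1.08, and 5 of 9 factors were called beside 23.1% of all genes. Irf8, which conventional dendritic cells are known to need, was counted at 231.5 and 226.1 CPM among dendritic cell-like cells and 339.9 and 381.4 CPM in microglia-like cells (log2 fold change -0.52 ± 0.23, SE, adjusted p = 0.11). Against macrophage-like cells, Sall1 and Mef2c were higher in dendritic cell-like cells, by 2.82 ± 0.41 (SE, adjusted p = 0.000332) and 1.51 ± 0.32 (SE, adjusted p = 0.0051) on the log2 scale, 2 of 9 factors beside 15.7% of all genes. Mef2c had a level of 376.8 and 250.8 CPM in dendritic cell-like cells, against 79.8 and 106.7 CPM in macrophage-like cells. The summed microglia markers summed to 35.3% and 16.5% of their microglia-like level in dendritic cell-like cells, against 7.93% and 10.1% in macrophage-like cells, and their part in these 2 differences was not tested.

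Set beside the 10 microglia markers, Sall1 followed them closely in several classes. As a share of the microglia-like level, Sall1 was at 30.4% and 18.2% in dendritic cell-like cells, where the markers were at 35.3% and 16.5%. In T or NK cell-like cells Sall1 was at 42.5% and 27.5%, and the markers were at 43.5% and 22%. In neutrophil-like cells Sall1 was at 78.4% and 54.5%, and the markers at 78.3% and 47.0%. In free RNA the markers summed to 35.1% and 52.7%, and the part of free RNA in the Sall1 levels of these classes was not tested. In macrophage-like cells Sall1, at 1.94% and 5.09%, was lower than the markers, at 7.93% and 10.1%, in both libraries, and so it was in mural cell or fibroblast-like cells, at 11.1% and 8.23% against 38.0% and 29.8%. Sall1 was also below the markers in cycling cells, at 39.4% and 52.6% against 51.3% and 66.5%. In monocyte-like cells the gap was small, at 22.2% and 7.06% against 25.7% and 7.25%. In border-associated macrophage-like cells the libraries differed in direction, at 4.17% and 0% against 3.42% and 2.26%.

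**Figure D3:**
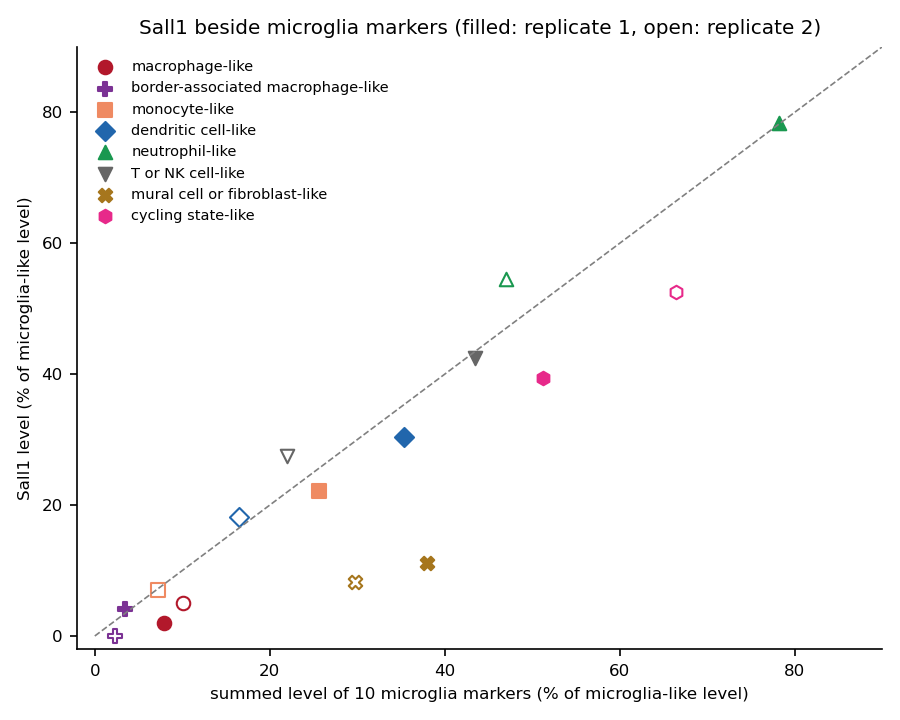
Sall1 level (vertical axis) against the summed level of 10 microglia markers (horizontal axis), both in percent of the microglia-like level of the same library, with filled symbols for replicate 1 and open symbols for replicate 2. The dashed line marks equal percentages: dendritic cell-like, T or NK cell-like and neutrophil-like cells lie near it, and macrophage-like cells lie below it at 1.94% and 5.09%. Cycling cells and mural cell or fibroblast-like cells lie below it too.

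Neutrophil-like cells had Cebpb at 1555 and 3091 CPM, against 915 and 912.2 CPM in microglia-like cells, a log2 fold change of 1.41 ± 0.32 (SE, adjusted p = 0.0148). It was the only factor called, 1 of 9 beside 5.05% of all genes, and the call was lost when only these classes were fitted and under the stricter cell filter. The cluster carried the microglia markers at 78.3% and 47.0% of their microglia-like level, as given above. With classes drawn cell by cell from the markers and no clusters, 74 and 272 neutrophil-like cells had Cebpb at 1848 and 4789 CPM and Sall1 at 19.1 and 7.24 CPM, and 8 of 9 factors were called: Cebpb and Spi1 higher, and Sall1, Maf, Mef2c, Irf8, Mef2a and Bhlhe41 lower, beside 27.3% of all genes. At the higher clustering resolution the count was also 8 of 9, beside 28.5%, so the neutrophil-like levels of the 9 factors depend on how the cells were drawn.

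Over the classes, the order of levels was led by microglia-like cells for Sall1, Mef2a, Mef2c, Irf8, Runx1 and Bhlhe41, and for each of these 6 the 2 libraries of the next class did not overlap with them. Maf was led by border-associated macrophage-like cells at 597.1 and 476.6 CPM, above the microglia-like 399.5 and 423.9 CPM, and the libraries did not overlap. That class held 242 and 17 cells, too few in replicate 2 for a test, and its cluster was led by Xist, Mrc1 and Marco and tied with macrophage markers, so its name is uncertain. Sall1 in it was at 6.24 CPM in replicate 1, and no UMI was counted in replicate 2, where the exact Poisson interval reaches 9.35 CPM. Maf was not clearly ordered below the microglia-like cells: it averaged 153.1 ± 42.6 CPM in monocyte-like cells, 140.9 ± 33.4 CPM in macrophage-like cells and 140.3 ± 34.4 CPM in dendritic cell-like cells (SD, n = 2 each), and these overlap.

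For Spi1 the 7 highest classes overlapped with their neighbours, between 488.5 ± 68.6 CPM in monocyte-like cells and 320.6 ± 92.6 CPM in macrophage-like cells (SD, n = 2 each). T or NK cell-like cells, at 136.8 ± 47.5 CPM, and mural cell or fibroblast-like cells, at 21.6 ± 4.79 CPM (SD, n = 2 each), were below them with no overlap. Cebpb was highest in monocyte-like cells at 3640 ± 537 CPM, then in neutrophil-like cells at 2323 ± 1086 CPM and macrophage-like cells at 1296 ± 913 CPM, whose libraries overlap, and lowest in T or NK cell-like cells at 520.5 ± 95.7 CPM (SD, n = 2 each). Cycling cells had levels of 8 factors between the macrophage-like and microglia-like ones in each library, while their Cebpb, at 508.8 and 608.9 CPM, was below both. They joined cluster 11, with Sall1 at 98.4 and 82.3 CPM, and cluster 16, with Sall1 at 2.76 and 8.75 CPM and the macrophage markers high.

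Among the 5 named microglia-like clusters, Cebpb and the microglial factors Sall1 and Maf differed most. Each of the 5 clusters was compared with the mean of the other 4. Clusters 3, led by Slc2a5 and P2ry12, and 6, led by Pik3ip1, Fkbp5 and Tsc22d3, lay at the ends for Cebpb and Sall1. Clusters 9 and 10 had microglia as their best list but too few of its markers for a name, and were not tested. Cluster 9 lay below all 5 named clusters in Sall1 (49.3 and 58.3 CPM, lower and higher library), Maf (156 and 188.6 CPM) and Cebpb (337.9 and 386.2 CPM). Cluster 10 had Sall1 at 40.7 and 50.8 CPM, Maf at 111.6 and 130.5 CPM and Cebpb at 353 and 731.6 CPM. Of 45 comparisons of a factor in a cluster, 25 were called, 13 higher and 12 lower. Of all genes, 38.5%, 23.7%, 7.85%, 12.6% and 29.7% were called in clusters 0, 3, 4, 5 and 6. Without the library block 12 comparisons were called, beside 17.2%, 8.27%, 0%, 0.419% and 15.8% of all genes in these clusters. The clusters were drawn from other genes of the same cells, so differences between them are partly expected. The p-values take no account of that and describe only how a difference repeats over the libraries.

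The CPM of the other clusters is given here as their geometric mean. In cluster 3 Cebpb had a level of 427.9 and 431 CPM, against 951.5 and 1078 CPM in the others, a log2 fold change of -1.52 ± 0.08 (SE, adjusted p = 1.86e-13). In cluster 6 it had a level of 1627 and 2178 CPM, against 681.4 and 719.2 CPM, a log2 fold change of 1.66 ± 0.06 (SE, adjusted p = 1.44e-15). Sall1 ran the other way. It had 281.4 and 224.7 CPM in cluster 3, against 151.8 and 119.5 CPM in the others (0.62 ± 0.07, SE, adjusted p = 4.34e-07), and 101.8 and 79.9 CPM in cluster 6, against 195.8 and 154.7 CPM (-0.72 ± 0.08, SE, adjusted p = 1.94e-07). Maf was likewise higher in cluster 3, at 787.2 and 726.9 CPM against 408.4 and 348.1 CPM, and lower in cluster 6, with log2 fold changes of 0.73 and -0.49. The called factors were 5 of 9 in cluster 3 beside 23.7% of all genes, and 7 of 9 in cluster 6 beside 29.7%. With no normalization factor 2 of these calls turned sign: Bhlhe41 in cluster 3, at -0.26 in the fit and 0.022 without the factor, and Mef2a in cluster 6, at 0.21 and -0.016. The microglia markers named the clusters and were not withheld from drawing them, though Cx3cr1 was not among the genes used for that. They summed to 14251 and 16947 CPM in cluster 3 and to 5751 and 6147 CPM in cluster 6. Depth differed too: cells of cluster 3 had the lowest medians of the 5 clusters, 1471 and 3627 UMIs, against 3071.5 and 5757 in cluster 6. The part of depth in these differences was not tested.

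Cluster 0, led by Ccl12, Cst7 and Cxcl10, had less Maf, Mef2a, Sall1, Runx1 and Mef2c, at log2 fold changes of -0.60, -0.59, -0.55, -0.40 and -0.18, and 6 of 9 factors were called beside 38.5% of all genes. Its sixth call, Cebpb at 0.23, had log2 ratios of opposite sign in the libraries (0.14 in replicate 1 and -0.11 in replicate 2). Cluster 5, led by Egr1 and Il1a, had more Mef2c, Cebpb and Sall1, at 0.35, 0.31 and 0.29, 3 of 9 beside 12.6%. Cluster 4, led by the heat shock genes Hspa1a and Hspa1b, had more Sall1, Maf and Mef2c and less Cebpb, at 0.36, 0.31, 0.20 and -0.68, 4 of 9 beside 7.85%. Spi1 was called in no cluster, with log2 fold changes between -0.11 and 0.12.

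**Figure D4:**
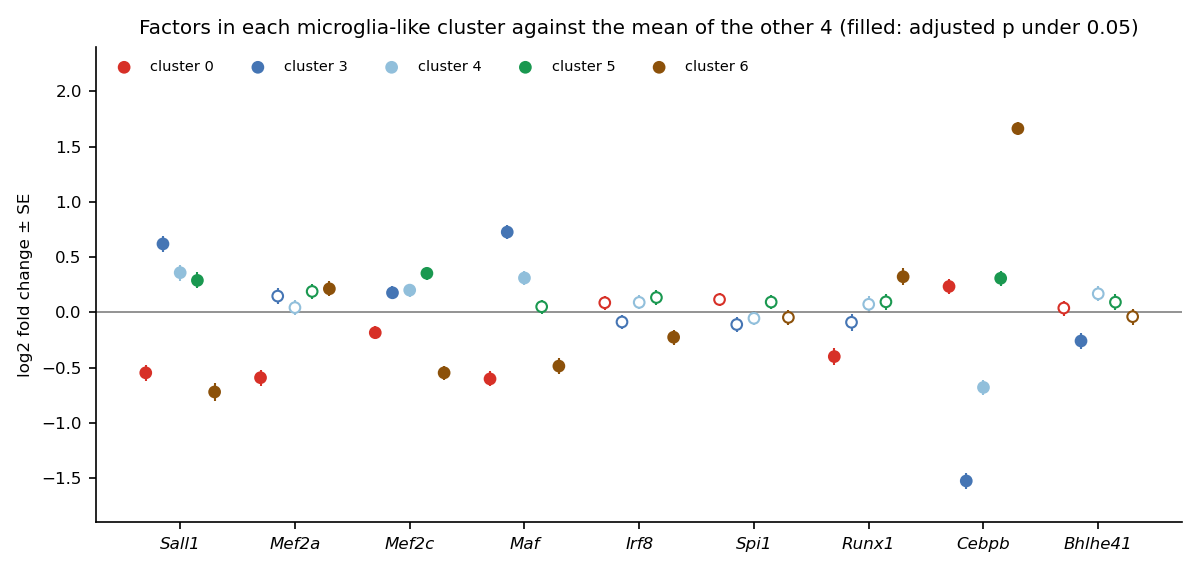
Log2 fold change (vertical axis, linear) of each factor in each of 5 microglia-like clusters against the mean of the other 4, with bars for the standard error and filled circles for an adjusted p under 0.05. Cebpb runs between -1.52 in cluster 3 and 1.66 in cluster 6, while Sall1 and Maf are higher in cluster 3 and lower in cluster 6.

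Cebpb also differed between the macrophage-like clusters 2a and 1. In cluster 2a it had a level of 1530 and 2634 CPM, against 481.9 and 681.1 CPM in cluster 1, a log2 fold change of 1.60 ± 0.15 (SE, adjusted p = 5.74e-23). Sall1 was higher in cluster 2a too, by 1.12 ± 0.36 on the log2 scale (SE, adjusted p = 0.0134), from 6.38 and 8.72 CPM against 2.0 and 5.98 CPM. Mef2c, Maf, Bhlhe41 and Irf8 were lower in it, at -0.93, -0.67, -0.50 and -0.49. In all 6 of 9 factors were called, beside 20.3% of all genes. This fit had 1 residual degree of freedom, so its spread leaned on that of all genes. Without the library block 1 of 9 factors was called and by DESeq2 3, beside 2.06% and 4.1% of all genes. Cluster 2a was split from the same cluster as the monocyte-like cells. Its monocyte markers summed to 766.3 and 1467 CPM, against 110.1 and 282.8 CPM in cluster 1. Its border-associated markers summed to 5013 and 2924 CPM, against 1156 and 776.1 CPM. The part of such cells in these differences was not tested. Cluster 8, with 21 cells in replicate 2, was not tested, and its Cebpb was 358.6 CPM in replicate 1 and 679.3 CPM in replicate 2.

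The relatives of the 9 factors did not follow them as a body. Between macrophage-like and microglia-like cells, Runx3, a factor of lymphoid and dendritic cells, was higher where Runx1 was lower: it had 30.2 and 50.6 CPM in macrophage-like cells, against 1.55 and 0.197 CPM in microglia-like cells, a log2 fold change of 5.91 ± 0.47 (SE, adjusted p = 2.15e-07). Runx2, best known from bone, was higher too, at 4.31 ± 0.55 (SE, adjusted p = 1.39e-05), and Cbfb, the partner of all RUNX proteins, was not called. Bhlhe40, the close relative of Bhlhe41, had 59.5 and 68.5 CPM in macrophage-like cells, against 7.64 and 3.85 CPM in microglia-like cells, a log2 fold change of 3.83 ± 0.43 (SE, adjusted p = 3.86e-06), opposite in sign to Bhlhe41. Spic, an ETS factor of iron-recycling macrophages, was higher by 4.16 ± 0.61 (SE, adjusted p = 6.25e-05), from 92 and 59 UMIs in macrophage-like cells. These 4 higher relatives kept their sign with no normalization factor.

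Sall3 and Sall2 were lower like Sall1, Sall2 from low levels in both classes. Sall3 had 1.03 and 2.91 CPM in macrophage-like cells, against 62.9 and 69.7 CPM in microglia-like cells, a log2 fold change of -5.16 ± 0.40 (SE, adjusted p = 1.82e-07), and Sall2 had 0.933 and 0.582 CPM, against 4.18 and 4.8 CPM. Of 7 other IRF genes tested 1 was higher and 3 were lower, beside the 44.1% of all genes called. Irf7, a driver of the interferon response, had a level of 34.5 and 172.5 CPM in macrophage-like cells, against 40.6 and 38.4 CPM in microglia-like cells, so replicate 2 carried its log2 fold change of 1.33 ± 0.35 (SE, adjusted p = 0.00544), which was 0.19 without cluster 2. Irf4 and Irf1 were lower, at -3.33 and -1.47. Of 5 other CEBP genes 3 were called: Cebpe was higher at 2.11, from 9 and 3 UMIs in macrophage-like cells, and Cebpd and Cebpz were lower at -1.47 and -1.07. Maff and Mafk, which encode small MAF proteins, were lower at -1.29 and -0.56.

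**Figure D5:**
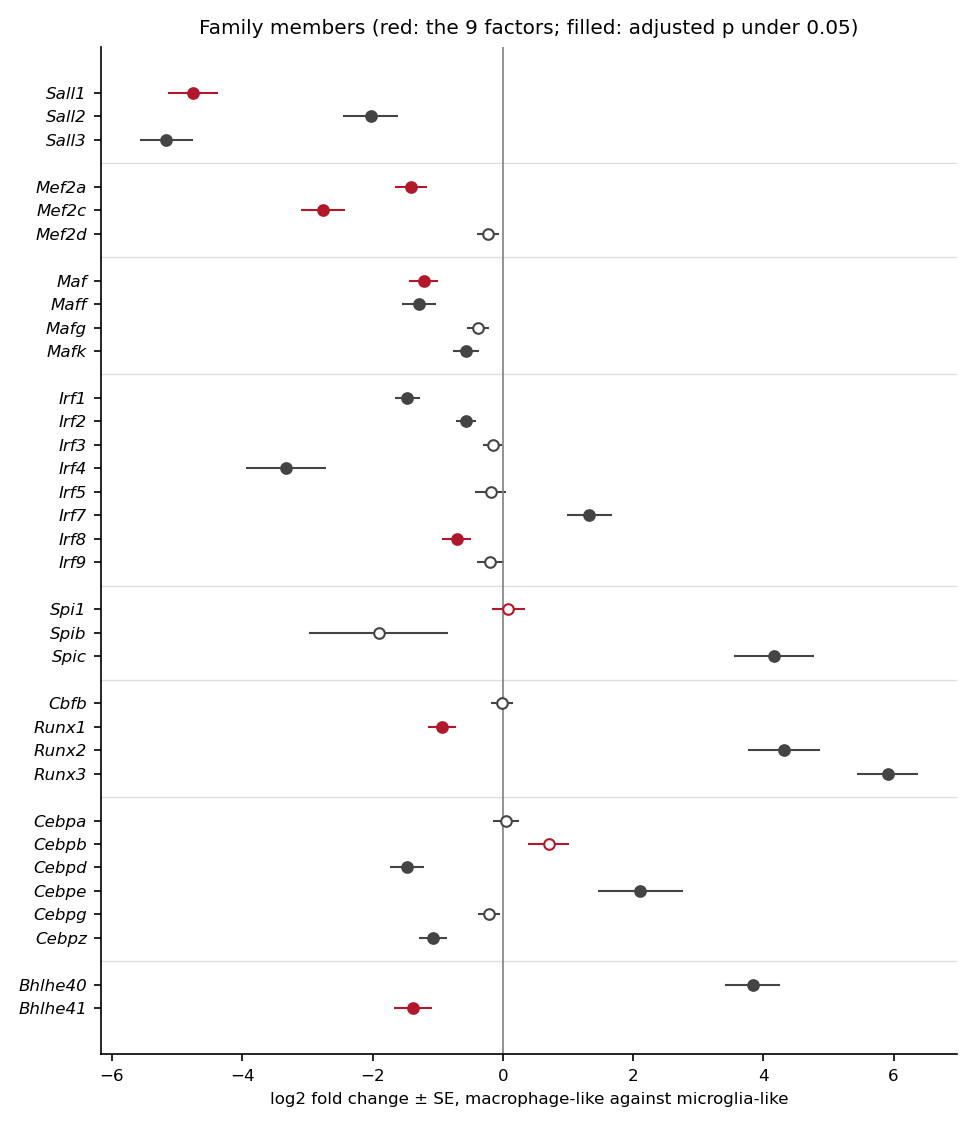
Log2 fold change (horizontal axis, linear) between macrophage-like and microglia-like cells for the 9 factors (red) and tested relatives (grey), grouped by family, with bars for the standard error and filled circles for an adjusted p under 0.05. Runx3 at 5.91 and Bhlhe40 at 3.83 lie right of 0 while Runx1 and Bhlhe41 lie left of it, and Sall3 at -5.16 lies with Sall1.

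Of 34 other lineage factors of phagocytes tested in the same comparison, 6 were higher and 14 lower, 20 called beside 44.1% of all genes, with a median log2 fold change of -0.09, against -0.04 over all genes. Nr1h3, which encodes the oxysterol receptor LXR alpha, and Pparg, a lipid-sensing nuclear receptor, were the most raised, at 5.21 and 5.15. Zeb1 and Klf2 were the most reduced, at -3.70 and -3.41. Among 14 upstream signals 2 were higher and 8 lower, beside the same 44.1%. The receptor chains Csf2ra and Csf2rb were higher at 0.77 and 0.57, both lost with no normalization factor, and Csf1 and the TGF-beta inhibitor Smad7 were lower at -2.99 and -2.69. In monocyte-like cells against microglia-like cells the same lists gave 14 higher and 6 lower of 34 lineage factors, and 3 higher and 6 lower of 14 upstream signals, beside 36.8% of all genes. Tgfbr1 and Tgfbr2, the receptors of TGF-beta, which microglia are known to need, were lower there at -1.92 each, and Ahr was higher at 5.42.

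Over the 32 sums of 16 clusters, the genes whose levels were most like a factor's were named by Pearson's r of log2 values, as a description of sums that share libraries and cells. Sall1 was most like Rapgef5 (0.973), St3gal6 (0.964) and Pde3b (0.964). Mef2c was most like Cx3cr1 (0.978), Pdgfb (0.976) and Bmp2k (0.970), and Bhlhe41 like Hpgds (0.955), Daglb (0.954) and C1qa (0.947). Mef2a and Runx1 were each other's nearest gene at 0.964 among 7865 compared, and both had Dock4 in their lists. Irf8 was most like Laptm5 (0.972) and Maf like Arhgap12 (0.932). Cebpb stood apart. Its nearest gene, Ndel1, reached 0.868, and its r with the other 8 factors lay between -0.22 and 0.36, whereas the other pairs of factors lay between 0.13 and 0.96. Of the genes named here, Rapgef5, St3gal6, Pdgfb, Dock4 and Ndel1 were used for clustering, and Cx3cr1 is a marker used for naming. Their r is therefore not independent of how the clusters were drawn and named.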

How the data were processed

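Each library was deposited as a matrix of whole UMI counts, neither normalized nor filtered, that lists all 6794880 barcodes of the kit. The authors made it with Cell Ranger, per the file headers. Versions in the submitters' processing notes are Cell Ranger 4.0.0, STAR 2.5.1b and Seurat 4. Of the genome builds, mm10, GRCh38 and GRCm38 are all named there with no role. Of the gene IDs, 99.9% were in GENCODE vM21 (GRCm38), from which coordinates were taken. Library totals were 101893367 UMIs (replicate 1) and 62850768 UMIs (replicate 2).

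Barcodes with 1000 or more UMIs, 500 or more genes and a mitochondrial share of 10% or less were kept as cells. Scrublet marked 1426 doublets in replicate 1 (9.47%) and 0 in replicate 2, where it had not worked, so there the 501 cells with the highest doublet scores were removed (6.33%), which left 13624 and 7409 cells. Counts scaled to 10000 per cell were clustered with scanpy 1.11.5 (2000 variable genes without the 88 genes of the lists, 30 principal components, 15 neighbours, Leiden resolution 0.8, seed 1, no batch correction). Clusters were named from 14 lists of surface and secreted markers, and cycling cells from nuclear genes. Cluster 2 was split once at resolution 0.1 after the clusters were seen, into 2a (macrophage-like) and 2b (monocyte-like). UMIs were summed per library and class and tested with edgeR 4.0.16 (R 4.3.3): TMM, filterByExpr, glmQLFit with library as a block, Benjamini-Hochberg over genes not used for clustering, threshold 0.05. The 8 classes with at least 50 cells per library were fitted together (7 residual degrees of freedom), the microglia-like clusters together (4) and the macrophage-like clusters 1 and 2a together (1). Library is a block because every class was drawn from each droplet library. Deviations of classes in the same library correlated over 12191 genes at r between 0.0576 and 0.162. Tested on simulated counts for macrophage-like against microglia-like cells (10602 genes), the fit recovered 69% of genes changed by 1 and 84% of those changed by 2 on the log2 scale, and 4.97% of its calls were false. The simulation gave both classes equal means and changed 100 genes at each size, up and down alike. In the data 44.1% of genes were called, so these rates need not hold there. Alternatives were fits without the block, DESeq2 1.42.0, RLE or no normalization factors, no low-count filter, only the compared classes, doublets kept, a stricter cell filter (2000 UMIs, 1000 genes, 5% mitochondrial), Leiden resolutions 0.4 and 1.2, classes drawn cell by cell without clusters, equal weight per cluster and each library left out.

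Poisson and binomial intervals are exact, at 95%, and cover counting error only. All 9 factors passed the low-count filter. The genes named are the 9 factors, per list and comparison up to 2 genes in each direction with the largest fold change past the threshold, and the 3 genes most like each factor over clusters with at least 50 cells per library and at least 20 CPM. Mef2d and Cbfb were named after their values were seen. The factors, lists and tests were chosen with earlier results of these data known. Some genes that these rules select are not reported here.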

Additional observations from a re-analysis of the deposited data

How the results depend on the processing

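The other split of cluster 2, leaving cluster 2 out and a joint fit of macrophage-like and microglia-like clusters were added after seeing the data. Over all factors and alternatives 864 values kept their direction and side of the threshold, 49 lost and 50 gained a call, and 18 changed sign. For macrophage-like against microglia-like cells 6 to 8 of 9 factors were called throughout, beside 29.5% to 58.9% of all genes. For monocyte-like against microglia-like cells it was also 6 to 8, beside 22.4% to 46.2%. Of the 5 called between macrophage-like and monocyte-like cells, 3 were called with doublets kept and 3 under the stricter cell filter, beside 14.6% and 14.4% of all genes. The 2 called between dendritic cell-like and macrophage-like cells became 4 with only the classes compared, 4 with doublets kept, 4 at Leiden 0.4 and 4 with equal weights. Of all genes 21%, 17.1%, 16% and 21.3% were called in these fits, against 15.7%. Against microglia-like cells the 1 neutrophil-like call (1 by DESeq2 too) became 0 by edgeR with only the classes compared and 0 under the stricter filter (4 and 1 factors had an unadjusted p under 0.05; of all genes 77 and 263 were called, beside 547), but 8 at Leiden 1.2, 8 without clusters and 5 with equal weights. Without the library block 12 were called among microglia-like clusters, against 25, and 1 in macrophage-like cluster 2a, where DESeq2 called 3, against 6. The block changed at most 1 call in each class comparison. The mean share of cells with a UMI of a factor, 52% for macrophage-like and 71.2% for microglia-like cells, became 17.1% and 32.9% thinned to 1000 UMIs and 26.2% and 49.8% thinned to 2000 UMIs. The cause of these shifts was not tested. Of all genes, equal weights called 4024 between dendritic cell-like and microglia-like cells, against 2496. Without the block 1685, 810, 0, 41 and 1546 genes were called by edgeR in microglia-like clusters 0, 3, 4, 5 and 6 (989 in cluster 4 at an unadjusted p under 0.05), and by DESeq2 1948, 1103, 259, 527 and 1817, against 3771, 2324, 769, 1233 and 2908, and with no normalization factor 4686 in cluster 3 and 1216 in cluster 4. In cluster 2a the counts were 183 without the block and 365 by DESeq2, against 1809. For neutrophil-like cells they were 343 without the block, 3063 at Leiden 1.2, 2387 without clusters and 1926 with equal weights.

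With no normalization factor the median of all genes moved from -0.04 to -0.39 between macrophage-like and microglia-like cells, and 23.7% of calls were higher instead of 47.7%. For monocyte-like against microglia-like cells the share was 25.7% instead of 48.8%, for dendritic cell-like cells 37.7% instead of 51.1%, and for dendritic cell-like against macrophage-like cells 75.6% instead of 52.8%. It was 21%, 89.1%, 86.6% and 21.2% in microglia-like clusters 0, 3, 4 and 6, instead of 56.8%, 44.6%, 40.4% and 57.8% (by DESeq2 66.9%, 28.5% and 28.2% in 0, 3 and 4), and 78.4% instead of 46.8% in cluster 2a. Signs that turned there, none of them called with TMM except 2, were Spi1 between macrophage-like and microglia-like cells (-0.25), Mef2a (0.13) and Runx1 (0.069) in cluster 2a, Irf8 (-0.13), Spi1 (-0.10) and Bhlhe41 (-0.18) in cluster 0, Irf8 (0.20), Spi1 (0.17), Runx1 (0.19) and Bhlhe41 (0.022) in cluster 3, Spi1 (0.073) in cluster 4 and Mef2a (-0.016) in cluster 6. The exceptions are Bhlhe41 in cluster 3 and Mef2a in cluster 6. Without cluster 2, Cebpb turned to -0.22 between macrophage-like and microglia-like cells and to 0.071 between dendritic cell-like and macrophage-like cells. Maf between macrophage-like and monocyte-like cells turned to 0.044 without the low-count filter, 0.11 with equal weights and 0.022 with the other split, and Runx1 between monocyte-like and microglia-like cells to 0.024 at Leiden 0.4. Leaving out 1 library kept the sign of every call between classes and in cluster 2a, and of 23 (without replicate 1) and 22 (without replicate 2) of 25 among microglia-like clusters. The mean log2 ratios then lay between -0.11 and 0.14 for Cebpb in cluster 0, between -0.16 and 0.12 for Mef2a in cluster 6, and between -0.052 and 0.23 for Runx1 in cluster 6, and Bhlhe41 in cluster 3, called at -0.26, had ratios of 0.039 and 0.008. Classes without clusters gave no monocyte-like or dendritic cell-like value.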
